A study of Mus musculus with 15 samples.

Results

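Mouse embryonic stem (ES) cells without Srf were exposed to fetal bovine serum (FBS), and their transcripts were read on 1 array at each of 5 times. These 5 arrays, of the line that the labels call E100-/-, are taken here from a series of 15 arrays. They were chosen by their titles alone, without use of any measured value. The other 10 arrays hold the same times in the wild-type line E14 (E14wt) and in the line named E100-/- rescue, with 5 arrays for each line. All 3 lines received FBS for 0, 10, 30, 60 or 180 min, and total RNA went onto Affymetrix MGU74A arrays. Transcripts are read there by groups of short oligonucleotides, each group being called a probe set. The contrast sets the 60 and 180 min arrays against the 10 and 30 min arrays, 2 against 2, and the 0 min array is shown but stays outside it. Both times of a phase stand in for replicates, so the spread holds true differences between times as well as error. The labels give each line and time as 1 sample of ES cells, and do not say how Srf was removed or restored, whether E100-/- is 1 clone, whether serum was withdrawn beforehand, or how many dishes were pooled. Nothing shows that the arrays come from separate cultures, so p-values cover the spread between these arrays only.

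SRF (serum response factor) is a transcription factor that binds the CArG box, a DNA motif in the promoters of many immediate-early genes, which serum switches on without new protein synthesis. It works with ternary complex factors, which answer to MAP kinase signalling, and with the myocardin-related factors (MRTFs), which answer to the pool of free actin. Serum also carries bone morphogenetic proteins, lipids, metals and growth factors that reach the genome by other routes, such as SMAD proteins, CREB and the zinc sensor MTF1. ES cells that lack SRF are known for weak immediate-early induction and for a poorly organised actin cytoskeleton.

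The ES cell markers were present on the Srf-null arrays. All 10 of 10 (among them Pou5f1, Sox2 and Zfp42) stood above the floor of measurement at 10, 30 and 180 min, and 9 of 10 at 0 and 60 min, where Esrrb and Dppa3 respectively were at or below 0. The floor is a normalized intensity of 84.98, the 40th percentile of all values, below which levels were not ranked. Their summed intensity ran from 81987 to 112032 units. Of 10 fibroblast feeder markers, 4 to 7 stood above the floor with a summed intensity of 1414 to 2358, and the collagen gene Col1a2 was at or below 0 on every Srf-null array. Of 7 primitive endoderm markers, 4 to 6 stood above the floor, with a sum of 2828 to 4552. No probe set on the array is named Srf, so the labelled genotype could not be checked on its own transcript.

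The arrays differed in technical measures that have to be read beside the changes. In the deposited values, 26.7% of Srf-null values were 0 or negative at 10 min, 39% at 30 min, 41.6% at 60 min and 37.1% at 180 min, against 30.9% at 0 min. The 3' to 5' signal ratio of actin, a measure of RNA integrity, was 1.79 at 10 min, 1.64 at 30 min, 3.83 at 60 min and 1.94 at 180 min, and 2.94 at 0 min. The Srf-null 10 min array correlated best with the wild-type 30 min array (Pearson's r = 0.959 across probe sets, which are not independent), and the 30 and 180 min Srf-null arrays with each other (r = 0.96). The other lines varied too. In rescue cells the share at or below 0 was 37.4% at 10 min, and 26%, 25% and 25.2% at 30, 60 and 180 min. The trimmed mean of the deposited wild-type values was 1310 and 578 at 10 and 30 min, and 1440 and 452 at 60 and 180 min.

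Quantile-normalized intensities, with values at or below that floor set to it (log2 6.41), left 7936 probe sets to test, those that passed the floor on 2 or more of the 4 arrays. In limma's moderated test with Benjamini-Hochberg adjustment, 0 of them passed an adjusted p of 0.05 in either direction (0%), with 374 at an unadjusted p under 0.05 (4.71%). That share is no larger than the threshold of 0.05 itself would give without any change. The lowest adjusted p was 0.231. The words higher and lower therefore give the position of measured values, and no single change passed a test. With 2 against 2 arrays, an exact permutation test of a single value cannot go below p = 0.333. By position, 1244 probe sets were higher on both late arrays (60 and 180 min) than on both early arrays (10 and 30 min), which is 15.7%, and 1291 were lower (16.3%). Labels dealt at random to 4 arrays would separate a share of 0.333 of values in 1 direction or the other. The 2 counts together do not exceed that share, so they do not measure the size of a serum response. A fold rule that also asked for a difference of group means of at least 1 on the log2 scale kept 315 higher (3.97%) and 318 lower (4.01%), so both directions were about equally filled. This balance depended on the scaling: with each array scaled to a common median in place of quantile normalization, the fold rule gave 124 higher and 505 lower, as the median of all genes moved by -0.25 (log2). Within those sets, the genes below are described by function.

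Among transcripts with a gene symbol and above the floor on all 4 arrays, Id1 and Id3 had the largest upward differences, and Id2 was among the 12 largest. A probe set without a symbol had a larger one, 3.83 (log2). They encode helix-loop-helix proteins without a DNA-binding domain, which hold back differentiation factors and are textbook targets of BMP signalling. Id1 had normalized intensities of 429.5 at 0 min, 1108 at 10 min, 1155 at 30 min, 6141 at 60 min and 9852 at 180 min. The early arrays were nearly equal and both late arrays lay far above them, a difference of 2.78 ± 0.25 (log2 ± limma's moderated standard error, n = 2 arrays a group) or 6.88-fold, with limma's adjusted p at 0.231, the lowest of all named genes. Moderation draws the spread of each probe set toward the trend over all of them. The values after ± are therefore not the standard errors of a gene's own arrays alone. Id3 read 228 at 0 min, 381 at 10 min, 398 at 30 min, 1453 at 60 min and 2996 at 180 min, a difference of 2.42 ± 0.43. Id2 read 526 at 0 min, 637 at 10 min, 693 at 30 min, 1624 at 60 min and 5026 at 180 min, a difference of 2.10 ± 0.53. For all 3 genes, the early values were close together, the 60 min value was in between and the 180 min value was the highest.

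Id1, Id2 and Id3 were higher late in serum in the lines with Srf as well. Id1 was higher by 1.35 (log2) in wild-type and by 2.82 in rescue cells, Id2 by 1.46 and 2.10, and Id3 by 2.16 and 1.94. Fitted over the 12 arrays from 10 min on, the Srf-null minus wild-type difference of response was 1.43 (95% interval -0.04 to 2.90) for Id1, 0.65 (95% interval -1.37 to 2.67) for Id2 and 0.27 (95% interval -1.59 to 2.13) for Id3. These intervals span 0 but are wide enough to hold differences of over 1 log2 unit. At 0 min the Srf-null Id1 value was 429.5, against 9471 in wild-type and 7495 in rescue cells. In both those lines Id1 was about as high at 0 min as at 180 min (9744 and 7462). Rescue Id2 and Id3 were higher at 0 min (10526 and 5353) than at 180 min (3787 and 4581). Wild-type Id2 and Id3 were lower at 0 min (2216 and 1714) than at 180 min (5721 and 4621). The actin ratio at 0 min was 7.53 in wild-type and 4.22 in rescue cells, and its part was not tested. The differences given are from 10 and 30 min, not from 0 min. Among the 12 measured members of the list of BMP and TGF-beta targets, these 3 Id genes were higher past the fold rule and none was lower, beside 3.72% higher and 3.83% lower of all 5827 genes tested. Id4, the remaining Id gene, read 886 at 0 min, 355 at 10 min, 564 at 30 min, -232 at 60 min and 648 at 180 min, with overlapping groups and a lower late mean (-0.93 ± 1.04), as in wild-type (-0.27) and rescue cells (-0.49). Of the others, Smad6 (0.61 ± 0.48), Smad7 (0.11 ± 0.18) and Bmp4 (-0.28 ± 0.25) had overlapping arrays and the median of the list was 0.06, beside 0 for all genes.

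Mt1, Mt2 and Slc30a1, 3 genes of zinc and metal handling, were higher late in serum; no list of such genes was counted, so nothing is said of the others. Mt1 and Mt2 encode metallothioneins, small proteins that bind zinc and copper, and Slc30a1 encodes the transporter that exports zinc from the cell. Mt2 (described for its low p, after its values were seen) read 5108 at 0 min, 4991 at 10 min, 5129 at 30 min, 13099 at 60 min and 17551 at 180 min. Its late values exceeded both early ones by 1.58 ± 0.18 (log2), with an adjusted p of 0.33 in limma's test. Mt1 read 2031 at 0 min, 2037 at 10 min, 1481 at 30 min, 4548 at 60 min and 14379 at 180 min, a difference of 2.22 ± 0.52. Slc30a1 read 408 at 0 min, 169 at 10 min, 247 at 30 min, 778 at 60 min and 1356 at 180 min, a difference of 2.33 ± 0.57.

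In the rescue line Mt2 was bright from the early arrays on. Rescue cells held Mt2 at 19397 and 17779 at 10 and 30 min and 24965 and 18397 at 60 and 180 min, so their early level was already that of late Srf-null cells, and the change was 0.21 (log2) against 1.5 in wild-type cells. The Srf-null minus rescue difference for Mt2 was 1.38 (95% interval 0.61 to 2.15), with an adjusted p of 0.913 over 9198 probe sets, so it was not called. Slc30a1 was higher in all 3 lines, by 1.56 in wild-type and 1.72 in rescue cells. The promoter of Mt2 is shown because metal-response elements are known to control it. Capitals mark the letters TGCNCNC on either strand in the 250 bases before the start of transcription (RefSeq, GRCm38.p6, chr8:94172368-94172617, plus strand). This pattern is looser than the core of that element, so a match need not hold the core.
Mt2: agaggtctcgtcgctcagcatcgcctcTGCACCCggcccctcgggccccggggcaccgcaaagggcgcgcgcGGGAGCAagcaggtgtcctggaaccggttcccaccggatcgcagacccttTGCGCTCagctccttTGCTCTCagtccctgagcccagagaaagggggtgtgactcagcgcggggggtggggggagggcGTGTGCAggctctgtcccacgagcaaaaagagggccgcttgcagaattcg
The window has 5 matches, and 0.344% of 32851 promoter windows of that length hold as many, while 44.4% hold at least 1. A match of letters is a description and not a measured binding site, and this motif was added after the values were seen.

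Part of the immediate-early programme was higher late in serum without Srf. Ier2, an early-response transcription regulator, read 3846 at 0 min, 4909 at 10 min, 6222 at 30 min, 8653 at 60 min and 14896 at 180 min, a difference of 1.04 ± 0.28, with 1.58 in wild-type and 1.34 in rescue cells. Each later Srf-null array read higher than the one before it. Dusp1, the phosphatase that switches MAP kinases off, read 942 at 0 min, 1239 at 10 min, 1228 at 30 min, 2988 at 60 min and 5413 at 180 min. Both late values were at least 2-fold above both early values, a difference of 1.70 ± 0.30, beside 1.93 in wild-type and 1.51 in rescue cells. The difference of response for Dusp1 was -0.23 (95% interval -1.25 to 0.79) against wild-type and 0.19 (95% interval -0.83 to 1.21) against rescue cells.

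Zfp36, which encodes an RNA-binding protein that speeds the decay of cytokine messages, had -10.2 at 0 min, 213 at 10 min, 343 at 30 min, 768 at 60 min and 850.3 at 180 min. The late arrays were higher by 1.58 ± 0.53, beside 3.40 in wild-type cells, where values went from 232 and 215 to 2062 and 2686. Its response difference was -1.82 (95% interval -2.93 to -0.71) against wild-type cells, with an adjusted p of 1. Rhob, a small GTPase that regulates actin and endosomes, read 594 at 0 min, 734 at 10 min, 641 at 30 min, 1452 at 60 min and 2177 at 180 min, a difference of 1.37 ± 0.32 beside 1.83 and 2.06 in wild-type and rescue cells. Atf3, a stress-induced transcription factor, read 487 at 0 min, 158 at 10 min, 218 at 30 min, 469 at 60 min and 573 at 180 min on 1 of its 3 probe sets, a difference of 1.48 ± 0.58 beside 2.94 and 2.79. On another Atf3 probe set no Srf-null array passed the floor, while wild-type and rescue cells were higher by 2.85 and 2.32, so the probe sets of Atf3 disagree about the Srf-null response.

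**Figure D1:**
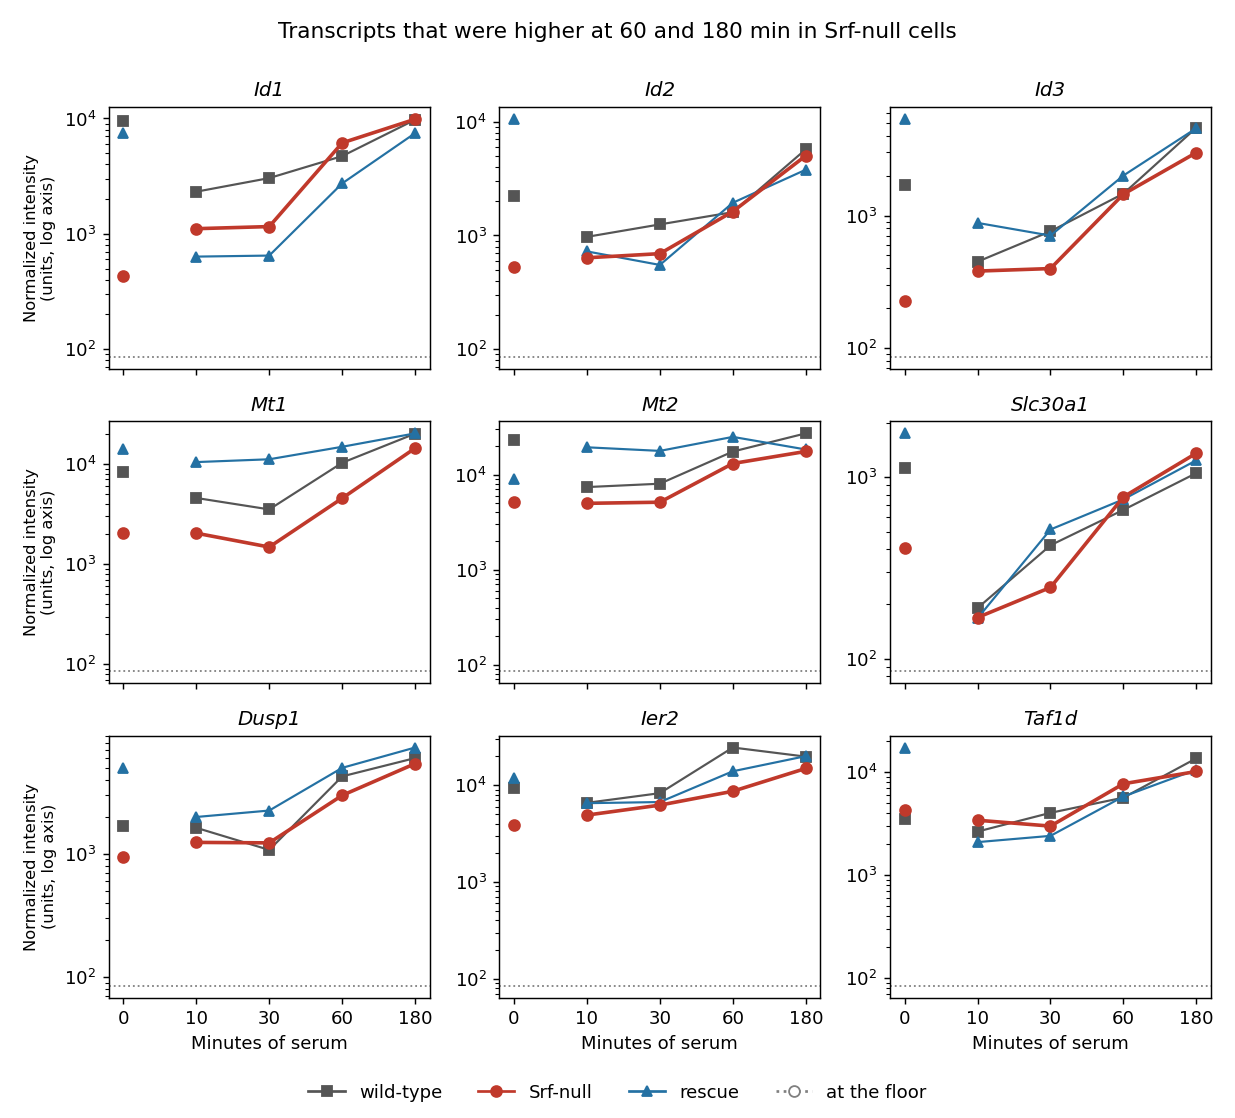
Normalized intensity (log axis) against minutes of serum for 9 transcripts in Srf-null (red circles), wild-type (grey squares) and rescue cells (blue triangles), 1 array a point; lines join 10 to 180 min, the 0 min array stands apart and the dotted line is the floor of 84.98. In the Srf-null line every panel has both late points above both early points, such as Id1 at 6141 and 9852 over 1108 and 1155.

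Promoters of these genes are shown to let the motifs for SRF and for CREB be seen, again as the 250 bases before the start (RefSeq, GRCm38.p6). In Dusp1 (chr17:26508473-26508722, minus strand), capitals mark TGACGTCA, the full cyclic AMP response element that CREB and ATF proteins bind, with its first base 143 bases before the start. In Zfp36 (chr7:28379229-28379478, minus strand) and Egr2 (chr10:67537316-67537565, plus strand), capitals mark a CArG box, starting 58 and 72 bases before the start.
Dusp1: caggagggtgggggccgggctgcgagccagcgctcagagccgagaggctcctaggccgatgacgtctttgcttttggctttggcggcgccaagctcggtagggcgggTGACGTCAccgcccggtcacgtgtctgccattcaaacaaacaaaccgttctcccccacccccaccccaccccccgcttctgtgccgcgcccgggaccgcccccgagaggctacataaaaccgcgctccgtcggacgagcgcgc
Zfp36: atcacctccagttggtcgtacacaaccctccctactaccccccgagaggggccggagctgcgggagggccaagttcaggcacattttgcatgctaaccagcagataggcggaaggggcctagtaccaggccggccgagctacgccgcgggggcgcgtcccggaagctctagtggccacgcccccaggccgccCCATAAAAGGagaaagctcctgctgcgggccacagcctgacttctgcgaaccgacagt
Egr2: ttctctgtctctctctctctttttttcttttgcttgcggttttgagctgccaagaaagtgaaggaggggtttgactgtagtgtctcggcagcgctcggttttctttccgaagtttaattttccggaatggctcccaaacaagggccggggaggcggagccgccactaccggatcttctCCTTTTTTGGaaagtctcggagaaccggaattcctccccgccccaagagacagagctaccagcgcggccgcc
The Egr2 window is 1 of 5 annotated for the gene and was taken as the first of them with a CArG box. For each gene, only a window that held the marked motif could be shown. Both strands were searched, and 1.55% of the 32851 windows hold TGACGTCA and 1.47% hold a CArG box. These are shares of single windows and not of genes with several windows. These windows reach only 250 bases, so sites further away are not covered, and binding was not measured.

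Egr2, a zinc-finger transcription factor of the same family as Egr1, was at the floor on both early Srf-null arrays and read 369 at 0 min, -249 at 10 min, -98.7 at 30 min, 1704 at 60 min and 564 at 180 min. Against the floor, the late mean was at least 11.5-fold higher, a log2 difference of 3.53 ± 0.73 that depends on where the floor is set. Wild-type cells gave 3.26 and rescue cells -0.62, and the interval of the Srf-null minus rescue difference, 4.14 (95% interval -0.50 to 8.79), is too wide to place it. Junb, an AP-1 subunit, has a pair of probe sets that disagree. The first read 1602 at 0 min, 46.3 at 10 min, 485 at 30 min, 829.7 at 60 min and 1028 at 180 min, a difference of 2.19 ± 0.89, while the other read -213 at 0 min, 197 at 10 min, 382 at 30 min, 205 at 60 min and 1182 at 180 min, with overlapping groups and a difference of 0.84 ± 0.95; in wild-type cells they were higher by 2.86 and 4.60.

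Other immediate-early genes stayed near their early level in Srf-null cells. Egr1, a zinc-finger factor and a textbook SRF target, read 249 at 0 min, 343 at 10 min, 176 at 30 min, 260.4 at 60 min and 201 at 180 min, a difference of -0.10 ± 0.64. No late array lay above the 10 min array. Wild-type cells read 503 and 1515 at 10 and 30 min and 9120.2 and 17551 at 60 and 180 min, a difference of 3.86, and rescue cells 882 and 1208 at 10 and 30 min and 8094 and 13748 at 60 and 180 min, a difference of 3.35. A further probe set of Egr1 was below the floor on all 5 Srf-null arrays. The Srf-null minus wild-type difference of response for Egr1 was -3.96 (95% interval -5.71 to -2.21) and the Srf-null minus rescue difference -3.46 (95% interval -5.21 to -1.71), with adjusted p of 0.742 and 0.875 in limma's test over 9198 probe sets, so neither was called.

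Fosb, another AP-1 subunit, gave the 1 called difference of response between lines. Srf-null values were 2042 at 0 min, 1311 at 10 min, 1413 at 30 min, 1621 at 60 min and 1571 at 180 min, a difference of 0.23 ± 0.21. Wild-type values were 1250.2 and 1347 at 10 and 30 min and 6059 and 5913 at 60 and 180 min, and rescue values 1402 and 1249.7 at 10 and 30 min and 4956 and 4685 at 60 and 180 min. The groups did not overlap in any line, but the step was 2.21 and 1.86 (log2) in the lines with Srf. The Srf-null minus wild-type difference was -1.98 (95% interval -2.43 to -1.52), adjusted p 0.0263, the only call among 9198 probe sets (0.0109%, with 340 or 3.7% at an unadjusted p under 0.05). Against rescue cells it was -1.63 (95% interval -2.09 to -1.18), adjusted p 0.134, with 0 calls (0%) and 390 probe sets (4.24%) at an unadjusted p under 0.05. Over 10 alternative settings that adjusted p against wild-type cells ran from 0.0226 to 0.314. The call was lost with median scaling (0.253), without an intensity trend (0.209), with each array's share of non-positive values as covariate (0.0951), with arrays of the same serum time paired across lines as a block (0.314), and without the Srf-null 10, 30, 60 or 180 min array (0.172, 0.261, 0.143 and 0.0636).

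Nr4a1, an orphan nuclear receptor, read 796 at 0 min, 1194 at 10 min, 1209 at 30 min, 1244 at 60 min and 1881 at 180 min in Srf-null cells, a difference of 0.35 ± 0.28, and only the 180 min array stood apart. Wild-type cells were higher by 2.34 and rescue cells by 1.10; the response difference was -1.99 (95% interval -2.97 to -1.01) against wild-type cells, adjusted p 0.946. Jun, the AP-1 subunit, read -111 at 0 min, 94.2 at 10 min, -254 at 30 min, 47.6 at 60 min and 759 at 180 min, so that the 180 min array alone was well above the floor. Fos itself was close to the floor at all times (47.7 at 0 min, 232 at 10 min, 5.1 at 30 min, 165 at 60 min and 111 at 180 min), a difference of -0.05 ± 0.66; it was also dim in the other lines, with differences of 1.25 in wild-type and 0.73 in rescue cells. Klf4, a reprogramming factor that serum induces in fibroblasts, was bright and level, at 7851 and 7210 at 10 and 30 min and 6739 and 8676 at 60 and 180 min.

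Ccn1 and Ccn2, which encode secreted matricellular growth regulators and are known SRF and YAP targets, were highest at 180 min. Ccn1 read -16.7 at 0 min, -0.4 at 10 min, 42.2 at 30 min, -47.8 at 60 min and 196 at 180 min, above the floor at 180 min only, while wild-type cells reached 1314 and 1861 and rescue cells 1014 and 1761 at 60 and 180 min. Ccn2 read 772 at 0 min, 278 at 10 min, 276 at 30 min, 165 at 60 min and 2926 at 180 min. Its 60 min value was below both early ones and its 180 min value far above them, so the groups overlapped and the difference was 1.33 ± 1.31. The wild-type and rescue lines already stood at 5990.3 and 2703 at 60 min. Of 11 measured members of the list of serum-induced secreted and matrix genes, 8 had a higher and 3 a lower late mean, with a median of 0.39. Past the fold rule, 2 were higher (Plaur and F3) and 1 lower (Plau), beside 3.72% and 3.83% of all genes. Under median scaling the list's median was 0.18, with all genes at -0.25. Plaur, the urokinase receptor, read 461 and 792 at 10 and 30 min and 1924 and 1308 at 60 and 180 min (difference 1.39 ± 0.40). F3 was higher by 1.19. Plau, the ligand of Plaur, went from 286 and 168 to below 0. Ccn3, of the CCN family, was not tested, as 1 of the 4 arrays passed the floor. It read -372 at 0 min, 132 at 10 min, -82.7 at 30 min, -124 at 60 min and -113 at 180 min.

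**Figure D2:**
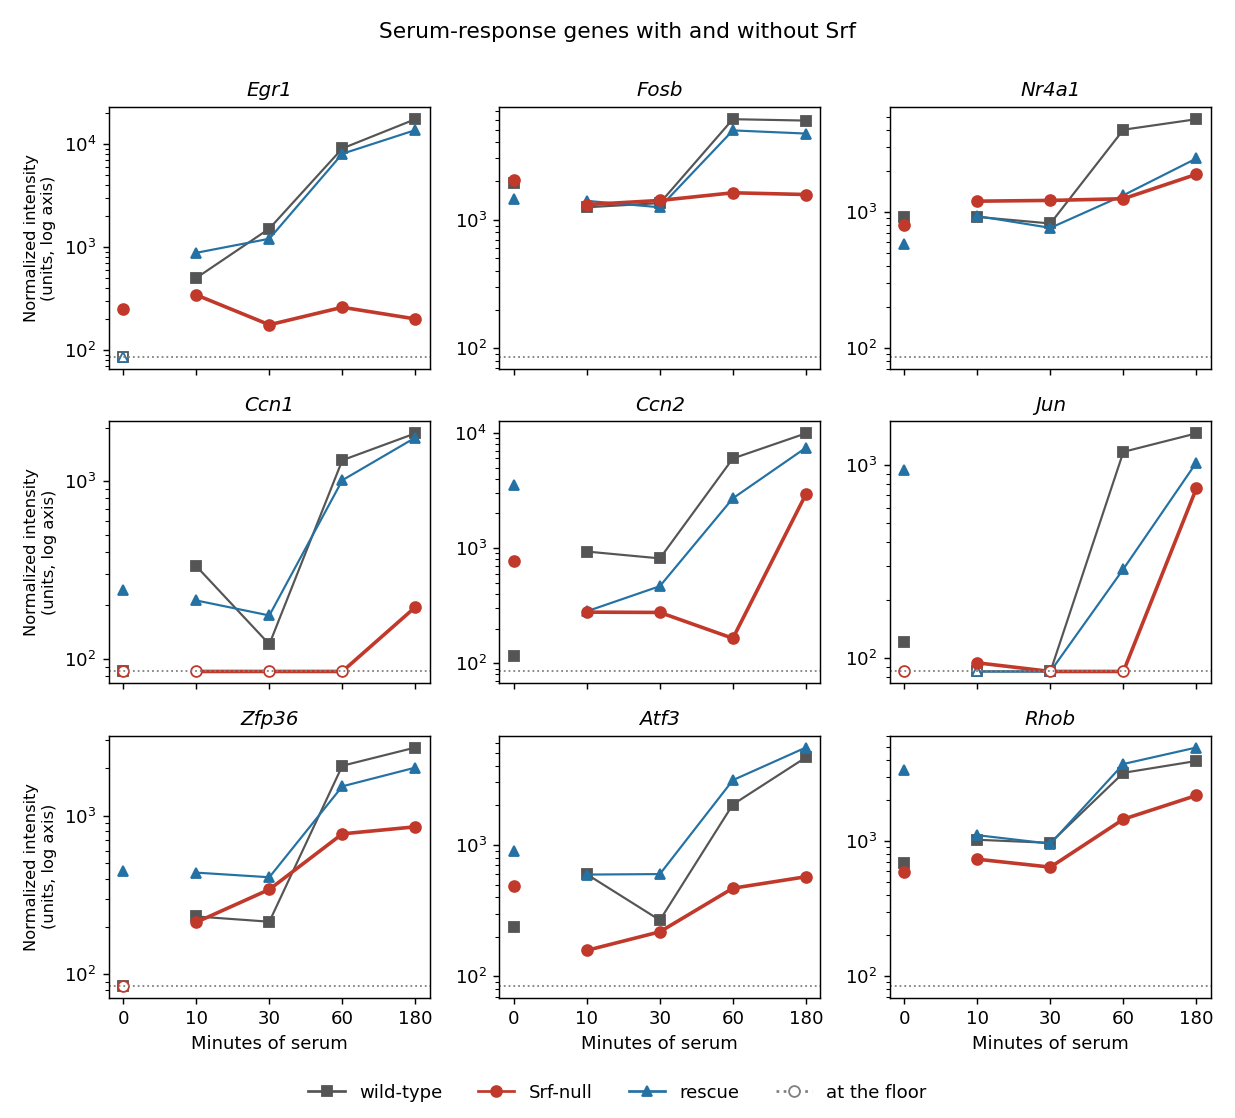
Normalized intensity (log axis) against minutes of serum for 9 serum-response genes, drawn as in the plot of higher transcripts, with open symbols for values at the floor. The red Srf-null points of Egr1 and Fosb stay between 176 and 343 and between 1311 and 2042, and those of Ccn2 and Jun stand high at 180 min alone.

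The actin genes themselves, among the best known SRF and MRTF targets, had no common direction in the Srf-null line. Of 26 measured members of the list of actin cytoskeleton genes, 14 had a higher and 12 a lower mean late in serum, with a median of 0.04 (log2), and 3 were past the fold rule (Rhob, Tln1 and Csrp1, all higher), beside 3.72% of all genes. Under median scaling the list's median was -0.17, with all genes at -0.25. Actb read 11636 at 0 min, 5145 at 10 min, 2379 at 30 min, 7354 at 60 min and 3858 at 180 min, a difference of 0.61 ± 0.44 with overlapping groups. It was brightest at 0 and 60 min, the arrays with the highest actin 3' to 5' ratios, and the part of RNA quality in this was not tested. Actg1 had 12530.2 and 12606 at 10 and 30 min and 7327 and 14004 at 60 and 180 min (-0.31 ± 0.30), Vcl, the focal-adhesion protein vinculin, 1347 and 1528 at 10 and 30 min and 842 and 1537 at 60 and 180 min (-0.33 ± 0.35) and Tagln, a smooth muscle actin-binding protein, 150 and 385 at 10 and 30 min and 1024 and 61.7 at 60 and 180 min (0.30 ± 1.25). Actg2 was lower on both late arrays, at 6188 and 5622 at 10 and 30 min and 4211 and 3291 at 60 and 180 min (-0.66 ± 0.17). Cnn1, a calponin, was higher by 1.28 in wild-type and 2.90 in rescue cells and overlapped in Srf-null cells (945 and 839 at 10 and 30 min and 1749 and 714 at 60 and 180 min).

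Most feedback regulators of growth-factor signalling had a higher mean late in serum. Of 22 measured members, 20 had a higher and 2 a lower late mean, with a median of 0.39 against 0 over all 5827 genes tested, and 3 (Dusp1, Zfp36 and Zfp36l2) were past the fold rule, beside 3.72% of all genes. Under median scaling the list's median was 0.09, with all genes at -0.25. Gadd45a, a growth-arrest gene of the stress response, read 1668 at 0 min, 2452 at 10 min, 2327 at 30 min, 4066 at 60 min and 4749 at 180 min, a difference of 0.88 ± 0.16, with 0.79 in wild-type and 0.50 in rescue cells. Zfp36l2, a relative of Zfp36, was at the floor early and read -567 and -83.7 at 10 and 30 min and 366 and 795 at 60 and 180 min, but 1775 at 0 min. Smaller shifts without overlap were seen for Socs3, a feedback inhibitor of cytokine receptors (2247 and 3210.2 at 10 and 30 min and 3469 and 4924 at 60 and 180 min, a difference of 0.62 ± 0.25), and Dusp6, the phosphatase of ERK (2881 and 3453 at 10 and 30 min and 3617 and 4797 at 60 and 180 min, a difference of 0.40 ± 0.20). Btg2 (0.12 ± 0.22) overlapped.

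Immediate-early transcription factors as a list had 15 members with a higher and 6 with a lower late mean of 21 measured, a median of 0.5, and 5 higher and 1 lower past the fold rule, beside 3.72% and 3.83% of all genes. Under median scaling the median was 0.27, with all genes at -0.25. The higher ones were Egr2, Ier2, Atf3, Junb and Maff, and the lower one Bhlhe40. Klf2, a factor of both the serum response and the ES cell network, read 2582 at 0 min, 2023 at 10 min, 1554 at 30 min, 3549 at 60 min and 2749 at 180 min, a difference of 0.82 ± 0.22; the difference was 0.17 and 0.19 in wild-type and rescue cells. Klf6, a zinc-finger factor, read 1331 at 0 min, 1111 at 10 min, 819.5 at 30 min, 1531 at 60 min and 2305 at 180 min, a difference of 0.98 ± 0.31. Since the rest of the list was spread on either side of 0, its median does not describe each member.

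Some genes tied to translation and amino acid supply were also higher. Atf4, the transcription factor that answers to amino acid shortage and stress, read 9783 at 0 min, 8756 at 10 min, 8714 at 30 min, 14954 at 60 min and 17657 at 180 min, a difference of 0.90 ± 0.15, with 0.48 and 0.55 in the other lines. Slc3a2, the shared heavy chain of amino acid transporters, read 9251 and 8949 at 10 and 30 min and 12946 and 12946 at 60 and 180 min (0.51 ± 0.13). In the list of ATF4 and amino acid stress genes 12 of 14 had a higher late mean, with a median of 0.33 (0.08 under median scaling, with all genes at -0.25), and none was past the fold rule; Asns, an ATF4 target for asparagine synthesis, was level at 0.07 ± 0.14. Taf1d, which encodes a subunit of the RNA polymerase I factor SL1, read 4261 at 0 min, 3426 at 10 min, 3005 at 30 min, 7742 at 60 min and 10185 at 180 min, a difference of 1.47 ± 0.18, adjusted p 0.439. Snhg5, a host gene of small nucleolar RNAs, read 1569 at 0 min, 1735 at 10 min, 1884 at 30 min, 4032 at 60 min and 4046 at 180 min, a difference of 1.16 ± 0.16, adjusted p 0.504. Both were picked for their low p after the values were seen. The list of ribosome biogenesis genes had a median of 0.05, with Nop56 (0.44 ± 0.16) and Rrs1 (0.44 ± 0.15) higher on both late arrays.

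The other lists had medians between -0.2 and 0.5. Trophoblast markers had a higher late mean in 7 of 7 measured members, with a median of 0.5 (0.05 under median scaling) and none past the fold rule; for example Krt8, a keratin, read 399.9 and 599 at 10 and 30 min and 715 and 684 at 60 and 180 min (0.51 ± 0.46). The 5 measured mesoderm and primitive streak genes had a median of 0.4 (-0.09 under median scaling). The list of Myc, cyclins and G1 entry had a median of -0.01 over 19 members, G2 and mitosis -0.1 over 16, cholesterol synthesis and uptake 0.02 over 16, hypoxia and glycolysis -0.19 over 17 and pluripotency 0.03 over 26. Myc read 521 and 501 at 10 and 30 min and 744 and 572 at 60 and 180 min (0.35 ± 0.44), and Mycn, a Myc family member, read 4016 and 4025 at 10 and 30 min and 3027 and 2609 at 60 and 180 min, lower on both late arrays (-0.52 ± 0.16). Nr0b1, a pluripotency-linked nuclear receptor, read 6999.6 and 7604 at 10 and 30 min and 9876 and 8994 at 60 and 180 min (0.37 ± 0.14). Bnip3, a hypoxia-induced mitochondrial protein, was lower at 1618 and 1869.8 at 10 and 30 min and 721 and 1117 at 60 and 180 min (-0.95 ± 0.31). Mcl1, an anti-apoptotic member of the Bcl2 family, read 7008 and 7055 at 10 and 30 min and 6769.7 and 10113 at 60 and 180 min (0.23 ± 0.21). Of 10 measured fibroblast feeder markers, 1 was higher and 3 were lower by the fold rule, beside 3.72% and 3.83% of all genes. S100a4, a calcium-binding protein, was higher by 1.66, while the collagen gene Col6a1, Lum and Lox had differences of -1.24, -1.47 and -1.57, the last 2 against the floor on both late arrays. In bulk RNA, fewer cells of a type and less RNA per cell cannot be told apart.

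Single members of these lists stood apart from their medians. Ccne1, the cyclin that drives entry into S phase, and Gata4, an endoderm transcription factor, were higher by 2.70 and 2.42 (log2). For Ccne1 the 10 min array alone was at the floor, and the 30 min value (2492) was close to the 60 min value (2544). For Gata4 the 30 min array was at the floor (-251), beside 479.5 at 10 min. With single arrays left out, the Gata4 difference ran from 1.17 to 3.66. Gata6, a related endoderm factor, was lower late in serum, with a difference of -0.95. Aurkb, a mitotic kinase, had a difference of -2.83, which rests on a 60 min value of 79.7 beside 1493 at 180 min. In glycolysis Aldoa and Aldoc, forms of the same enzyme, went opposite ways at -1.06 and 1.31. Herpud1, an unfolded-protein response gene, was higher by 1.26. The ribosomal RNA processing factor Rrp12 was at the floor on both early arrays and higher by at least 1.61 against it, a value that ran from 0.78 to 2.56 over the settings tried. Of the 5 measured mesoderm and primitive streak genes, Gata2 was higher (1.62) and Kdr lower (-1.23) by the fold rule. Over all genes, 3.72% were higher and 3.83% lower by that rule. With single arrays left out, the Gata2 difference ran from 0.56 to 2.68 and that of Kdr from -2.04 to -0.43. Every one of these differences has an adjusted p above 0.05.

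**Figure D3:**
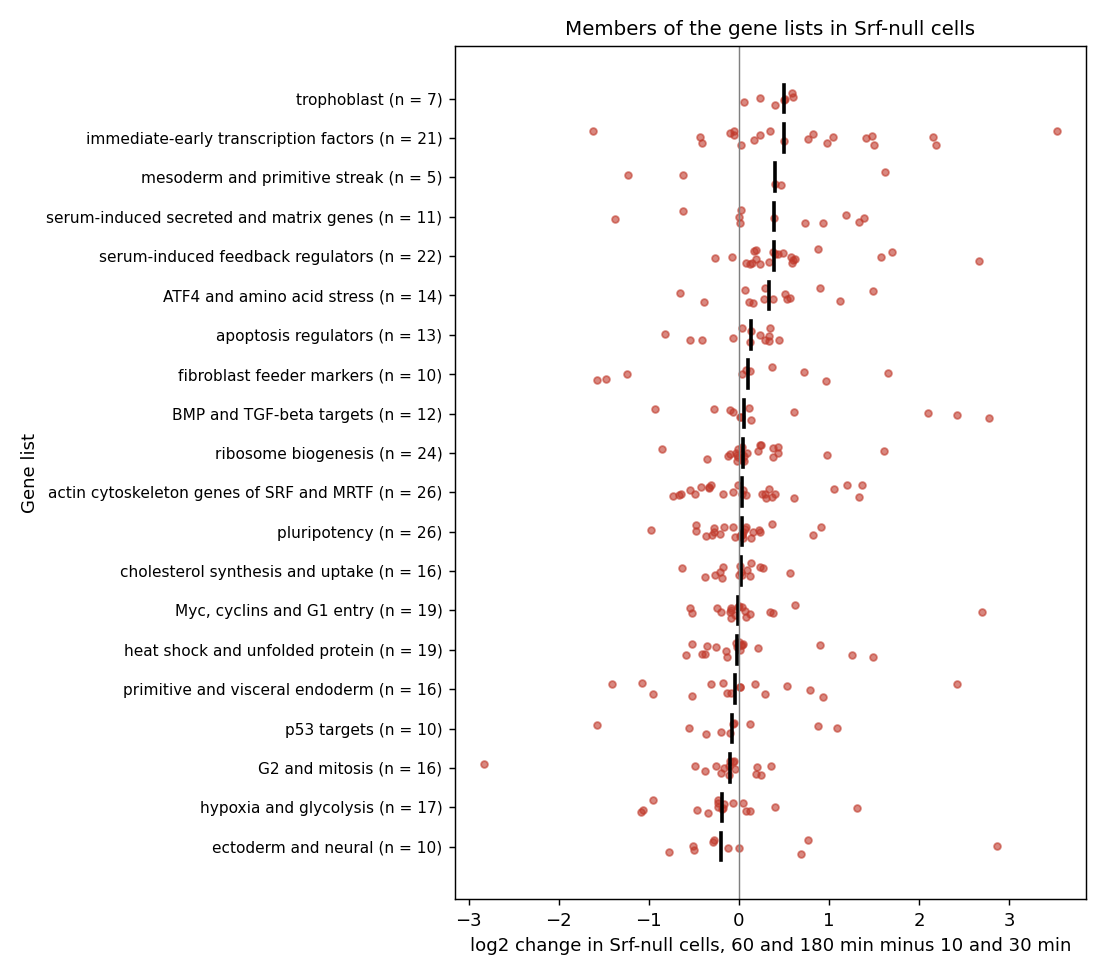
Each red point is the log2 change of a measured list member in Srf-null cells (60 and 180 min minus 10 and 30 min, n = 2 arrays a group), with the black bar at the list's median and the number of members in brackets. Medians lie between -0.2 and 0.5, and the Id genes stand at 2.10 to 2.78 at the right of the BMP and TGF-beta list.

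The other large upward differences by the rule for named genes came at lower intensities. Pard3, a polarity protein, read 188 and 145 at 10 and 30 min and 758 and 789 at 60 and 180 min (2.23 ± 0.55), with 2.41 in wild-type and -0.09 in rescue cells. Slc1a4, an amino acid transporter, read 537 and 93.4 at 10 and 30 min and 1137 and 613 at 60 and 180 min (1.90 ± 0.93), and Mrps12, a mitochondrial ribosomal protein, 1486 and 189.7 at 10 and 30 min and 1921 and 1839.8 at 60 and 180 min (1.82 ± 0.91), which rests on a low 30 min value alone. Lrp2, the endocytic receptor megalin, read 124 and 203 at 10 and 30 min and 714 and 430.1 at 60 and 180 min (1.81 ± 0.63) and Nppb, a natriuretic peptide gene, 128 and 92.1 at 10 and 30 min and 272 and 532 at 60 and 180 min (1.81 ± 0.63). Tex19.1 (2.11 ± 0.67) and Gcsam (1.96 ± 0.67) complete these 12. Among transcripts at the floor on both early arrays, Psapl1, Ccr6, Dmtn and Sox1 had differences of at least 2.87 to 3.67 (log2) against the floor. Sox1, a neural determinant, read -524 and -388 at 10 and 30 min and 1039 and 372 at 60 and 180 min. It was the only member of the ectoderm list past the fold rule, of 10 measured, beside 3.72% higher among all genes.

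Many transcripts that were lower late in serum were lowest at 60 min. Drd4, a dopamine receptor gene, had the largest downward difference of the named genes above the floor on all 4 arrays, at 1135 and 297 at 10 and 30 min and 96.8 and 87.1 at 60 and 180 min (-2.66 ± 0.79), and its level was already low at 30 min. Crip1, a LIM protein, read 1612 and 1458 at 10 and 30 min and 115 and 925 at 60 and 180 min (-2.23 ± 0.95), Rpl22, a ribosomal protein, 1063 and 1118 at 10 and 30 min and 138 and 791 at 60 and 180 min (-1.72 ± 0.84), and D8Ertd738e 819.9 and 1059 at 10 and 30 min and 87.1 and 798 at 60 and 180 min (-1.82 ± 1.05). In these 3, the 60 min array was low and the 180 min array was back near the early values. Acp5, an acid phosphatase, read 591 and 801 at 10 and 30 min and 260.1 and 134 at 60 and 180 min (-1.88 ± 0.62), and Bdnf, a neurotrophin, 373 and 289.7 at 10 and 30 min and 109 and 89.0 at 60 and 180 min (-1.74 ± 0.55). The 60 min value of D8Ertd738e and the 180 min value of Bdnf also lie just above the floor. The remaining named decreases above the floor (Tyms-ps, Clec11a, Klc1, Tcte2, Frat1 and Sart1) ranged from -1.68 to -2.15.

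Of all 318 probe sets lower by the fold rule, 234 were lower at 60 than at 180 min, 119 of them by 2-fold or more. Of the 315 higher ones, 84 were lower at 60 than at 180 min, so the 60 min array was the more extreme late array for most probe sets in either direction. The 60 min array also had the largest share of values at or below 0 and the highest actin ratio of these 4 arrays; their part in these differences was not tested. Among transcripts at the floor on both late arrays, Gcat, Srpr, St6galnac4, Trp53i13 and Eln had differences against the floor of -2.35 to -2.70. Rhbdl3, a rhomboid protease family member, had a lower late mean in all 3 lines: it read 449 and 482 at 10 and 30 min and -24.5 and -147 at 60 and 180 min in Srf-null cells, a difference of -2.45 ± 0.54, beside -2.65 in wild-type and -2.27 in rescue cells.

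Each time was also set singly against the 10 min array, with no test because each time has 1 array. At 30 min, 709 probe sets were at least 2-fold higher (8.93%) and 639 lower (8.05%). At 60 min there were 978 higher (12.3%) and 938 lower (11.8%), and at 180 min 663 higher (8.35%) and 576 lower (7.26%). The step from 0 to 10 min was larger than any of these, with 1386 higher (17.5%) and 1038 lower (13.1%). The filter on the floor did not use the 0 min array, so transcripts above the floor at 0 min alone are not counted. The trimmed mean of the deposited Srf-null values was 350 at 0 min and 845 at 10 min. Its part in this step was not tested. The largest single-time increases, such as Strn4, a striatin family protein (1429 at 0 min, 91.9 at 10 min, 1735 at 30 min, 2108 at 60 min and 1417 at 180 min), and Tk1, thymidine kinase (736 at 0 min, 259.8 at 10 min, 2564 at 30 min, 1798 at 60 min and 1972 at 180 min), rest on a low 10 min array, and Elovl1, a fatty acid elongase (5369 at 0 min, 8369 at 10 min, 3513 at 30 min, 8333 at 60 min and 501 at 180 min), the largest decrease at 180 min, rests on a low 180 min array. Drd4, also among the 5 largest decreases at 180 min, was low at 60 min already. Id1 and Ccn2 were among the 5 largest increases at 180 min, by 3.15 and 3.40 (log2).

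Transcripts higher late in serum in both lines with Srf give a set chosen without the Srf-null differences. It was made after results were seen and holds the 41 probe sets (32 named genes) that were higher by the fold rule in wild-type and in rescue cells. In Srf-null cells, 16 of the 41 (39%) were higher by the same rule, against 3.42% of all 9198 probe sets, and 0 were lower. With median scaling it was 14 of 63 (22.2%), and with the floor at the 35th percentile 17 of 57 (29.8%). These 16 make up 5.08% of the 315 higher in Srf-null cells. They were Id1, Id2, Id3, Slc30a1, Rassf1, Junb, Clk3, Dusp1, Zfp36, Atf3, Rhob, Taok3, Ier2, 2 probe sets of Taf1d, and 1 unnamed. The other 25 held probe sets of Egr1, Fosb, Nr4a1, Ccn1, Ccn2, Jun, Cnn1, Gadd45g, a growth-arrest gene, and the chemokine gene Cxcl1, with changes between -1.05 and 1.57 for all 25. Junb and Atf3 each had another probe set among these 25, with changes of 0.84 and 0.

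The median change of these 41 was 0.845 (log2) in Srf-null cells, 1.83 in wild-type and 1.82 in rescue cells. For 30 of them the Srf-null change was smaller than in both other lines. The set was chosen on the values of those lines, which alone can place them higher. A probe set needed 2 or more of the 12 arrays above the floor, which those lines alone can supply. The further Egr1 probe set and a probe set each of Atf3 and Cxcl1 were at the floor on all 4 Srf-null arrays. Their change of 0 was set by the floor, and it counts in the 30 and in the median. Of the 261 probe sets higher in wild-type cells (2.84%), 41 (15.7%) were higher in Srf-null cells, which is 13% of the Srf-null set, and 41 in rescue cells. Of the 303 higher in rescue cells (3.29%), 32 (10.6%) were higher in Srf-null cells, which is 10.2% of the Srf-null set, and 41 (13.5%) in wild-type cells. By the same rule, 2.55% of probe sets were lower in wild-type and 3.02% in rescue cells. Of 26 probe sets lower in both lines with Srf, 5 (19.2%) were lower in Srf-null cells, against 3.46% of all.

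**Figure D4:**
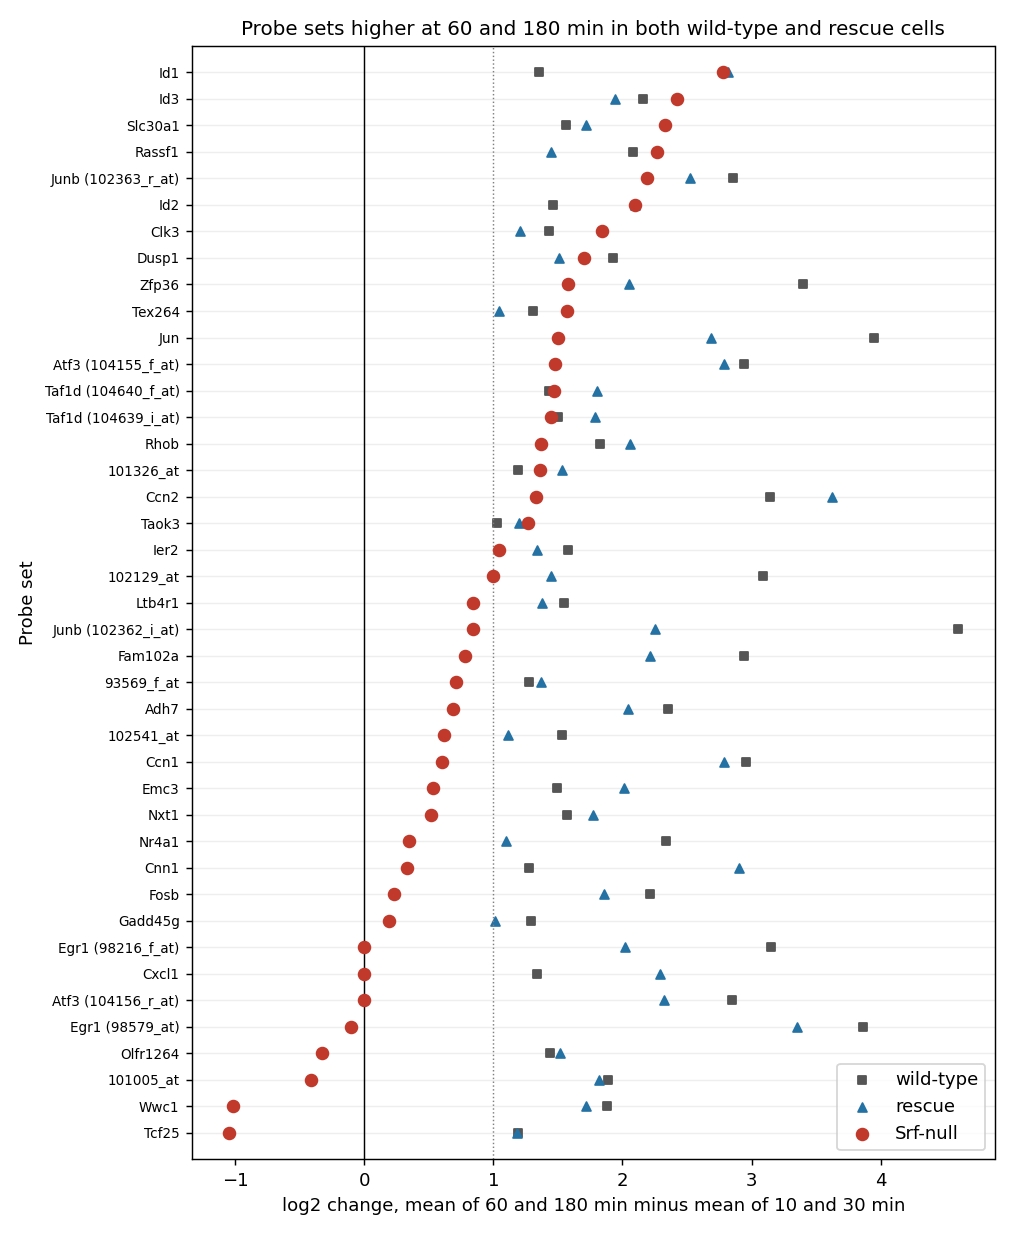
Log2 change (mean of 60 and 180 min minus mean of 10 and 30 min) of the 41 probe sets higher in both wild-type (grey squares) and rescue cells (blue triangles), sorted by the change in Srf-null cells (red circles); the dotted line marks 1. Id1, Id3 and Slc30a1 at the top reach 2.78, 2.42 and 2.33 in Srf-null cells, while Fosb and Egr1 lie at 0.23 and -0.10.

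Promoter motifs of this set were counted in the same windows. A gene with any probe set of the set higher in Srf-null cells was counted as higher. Junb and Atf3 were so counted, although another probe set of each was not higher by the fold rule. Of the 14 named genes that were also higher in Srf-null cells, 12 had a promoter window, of which 1 held a CArG box (Zfp36), 1 TGACGTCA (Dusp1), 6 TGCNCNC, 2 GGAAGT (an ETS motif), 1 CACGTG (an E-box) and 0 TGANTCA (an AP-1 motif). Of the other 18 genes, 16 had a window, with 0 CArG boxes, 0 TGACGTCA, 8 TGCNCNC, 1 GGAAGT, 1 CACGTG and 1 TGANTCA. Over all windows the shares were 19.7% for GGAAGT, 6.02% for CACGTG and 6.75% for TGANTCA, on both strands. Motifs may overlap, and the absence of these letters in a window says nothing about a factor.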

How the data were processed

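Total RNA of 3 mouse ES cell lines at 5 serum times was read on 15 Affymetrix MGU74A arrays, 1 a sample, and groups were taken from the sample titles. The deposited values are signal intensity per probe set on a linear scale, with negative values, as the authors made them; software, scaling and background steps were not given in the sources used here. Of 12654 probe sets, 66 controls were left out, and names came from the platform annotation (10298 with 1 symbol, 363 with several, 1993 with none), 10279 of them updated through Entrez identifiers.

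Intensities were quantile-normalized over 15 arrays, set to a floor at the 40th percentile (84.98) and log2-transformed. Probe sets that passed the floor on 2 or more of the 4 arrays (7936) were fitted with limma 3.58.1 in R 4.3.3 (lmFit, eBayes with an intensity trend, 2 residual degrees of freedom, Benjamini-Hochberg, threshold 0.05). Differences of response between lines used 12 arrays, 6 groups, 6 residual degrees of freedom and 9198 probe sets. Precision is limited by how few arrays there are. The procedure was tested on simulated data with the same normal noise for every probe set, no floor and no differences between times of a phase. That setting is simpler than these arrays, so it does not show how well changes are found in them.

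Named genes were the 12 largest non-overlapping differences each way above the floor on all 4 arrays, 6 each way against the floor, the 5 largest each way at each time against 10 min, called differences of response, up to 4 members of each list by p, and a set of serum-response and actin genes. Among a gene's probe sets, the text uses the one with the largest eligible change, or with the highest mean for list members. Members and lists were chosen with earlier results of these data known. Mt2, Taf1d, Snhg5, other named list members, second probe sets of Junb, Atf3 and Egr1, Cryz and the set of 41 were chosen after their values were seen. Promoters are RefSeq windows of GRCm38.p6. Alternatives were other scalings, floors, filters, thresholds, covariates, serum time as a block, and each array left out.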

Additional observations from a re-analysis of the deposited data

Results flagged for a closer look

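The response of Fosb, an AP-1 subunit, differed between lines by the test of the difference itself: Srf-null minus wild-type was -1.98 (log2), adjusted p 0.0263 in limma's 12-array fit (n = 2 arrays a group). It was lower in Srf-null than in both other lines, and the call did not hold under 8 of the 10 alternatives given with it.

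Cryz, a quinone reductase (crystallin zeta), moved opposite ways, and the opposite direction as such was not tested. Srf-null cells read 220 and 354 at 10 and 30 min and 989 and 420 at 60 and 180 min, a change of 1.21 (log2). Wild-type cells went from 320 and 491 to 190 and 114 (-1.43), and rescue cells from 423 and 175 to values below 0 (-1.68). It was the 1 probe set opposite to both lines by 2-fold, while 24 in all were opposite to wild-type and 31 in all to rescue cells.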

How the results depend on the processing

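Of the gene values recomputed under alternatives, 1782 moved by less than the spread between arrays that stand in for replicates, and 297 moved further. That spread holds differences between serum times. Because the main contrast called 0 probe sets, no reversal after a call could arise in it, which says nothing of stability. In some setting, 27 of 146 genes changed sign. With median scaling, 1 probe set was called higher (Id1, adjusted p 0.0269), the fold rule gave 124 higher and 505 lower, 0 differences from wild-type were called, the set shared by both lines with Srf held 63 with 14 (22.2%) higher in Srf-null cells, and the 2-fold counts were 232 higher and 1400 lower at 30 min, 285 and 2040 at 60 min, and 239 and 1204 at 180 min. With the floor at the 35th percentile, chosen after seeing the data because the planned 25th percentile (-54.1) has no logarithm and was not run, the fold rule gave 495 higher and 485 lower, and 1110 were higher at 30 min and 1043 at 180 min. With the floor at the 55th percentile these were 69 higher and 58 lower, 173 and 165 at 30 min, 303 and 307 at 60 min, 146 and 151 at 180 min, and a shared set of 22 with 11 (50%) higher. Above the floor on all 4 arrays, 2 were called (Id1 and 1 probe set without a symbol), with 118 higher and 106 lower by the fold rule. Without an intensity trend, or with each array's share of non-positive values as covariate, 0 differences from wild-type were called. At 4-fold the counts were 162 and 177 at 30 min, 256 and 307 at 60 min, and 150 and 121 at 180 min. At 1.5-fold the shared set held 75, of which 30 (40%) were higher in Srf-null cells against 6.74% of all. Leaving out each array in turn gave 0 to 7 called higher, 0 to 1 called lower, 318 to 661 higher and 368 to 743 lower by the fold rule, 0 differences from either line called, and 15 to 21 of the shared set higher. Without the 60 min array, the 180 min array stands alone and is assumed to vary like the early arrays. The calls there, with their log2 differences, were Id1 (3.12), Id2 (2.92), Mt1 (3.05), Mt2 (1.79), Dusp1 (2.13) and 2 probe sets of Taf1d (1.70 and 1.67). A probe set without a single gene symbol was called lower (-3.39). Ccne1 (5.13) was among the calls without the 30 min array, where its 10 min value at the floor stands alone. The cause of these shifts was not tested. The labels give no replicate numbers, but times match across lines. With serum time as a block in the 12-array fit (4 residual degrees of freedom, chosen after seeing the data), 1 probe set was called higher (Id1, adjusted p 0.0126) and 0 differences from either line were called. Signal near the floor limits all differences given against it.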
